A study of Xenopus laevis with 25 samples.

Results

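The comparison of RNF20 morpholino embryos with wild type at 16 hours post fertilisation (hpf) rested on 5 of the 25 libraries of the series: 2 wild-type libraries and 3 morpholino libraries, taken by their titles. The series profiled poly(A)-selected RNA of whole Xenopus embryos in both arms at 12, 13, 14, 15 and 16 hpf. The arms carried the genotype labels wild type and RNF20 morpholino. Morpholinos are antisense compounds that bind a chosen RNA and stop either its translation or its splicing. The labels give neither the sequence used nor a dose, and name no control morpholino. They list morpholino injection as the treatment of every library without saying whether wild-type embryos were injected. The number of embryos per library and the clutch are also not given, so p-values measure the spread between these libraries, which may be technical. The labels name Xenopus laevis, while the transcript identifiers carry the Ensembl prefix of Xenopus tropicalis. Reads of laevis gene copies, if present, would then share 1 transcript name, and the RNA levels below are of whole embryos, in which fewer cells of a type and less RNA per cell cannot be told apart.

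RNF20 and RNF40 form the E3 ligase that attaches 1 ubiquitin to histone H2B in transcribed chromatin, a mark that is placed together with the PAF1 complex and that aids methylation of histone H3 by the COMPASS and DOT1L enzymes. The series was titled as a study of this mark in heart development and in the motility of cilia. Motile cilia beat through dynein arms, which are assembled in the cytoplasm by chaperone complexes and then docked on the axoneme. In the frog embryo such cilia drive the leftward flow that sets the left-right axis, on which heart looping depends, and they cover the multiciliated cells of the skin. The hours studied span gastrulation and neurulation, when heart and muscle precursors, neurons and multiciliated cells are being specified.

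Expression is given as counts-per-million values (CPM) of the estimated counts after scaling by TMM, a factor that sets the bulk of transcripts equal between libraries, and values are listed as wild-type replicates 1 and 2, then morpholino replicates 1, 2 and 3. The 5 libraries held 15807892 to 21839661 estimated counts in all. Morpholino replicate 3 stood apart. Its TMM factor was 0.673, against 1.08 to 1.11 in the other 4 libraries, and its 100 most abundant transcripts took 36.2% of its counts, against 24.3% to 25.4%. Mitochondrially encoded transcripts took 2.84% of its counts, against 1.18% to 1.46%. Its log2 CPM correlated with the other 4 libraries at 0.83 to 0.86, whereas those 4 correlated with each other at 0.954 to 0.963, across transcripts. Morpholino replicate 3 also had the lowest TMM factor at 12, 13, 14 and 15 hpf, at 0.9, 0.87, 0.889 and 0.869. Its mitochondrial share was the highest at each of these hours, at 2.57%, 2.48%, 2.89% and 2.31%. At 12 hpf its 100 most abundant transcripts took 26.1% of its counts, against 26.8% in morpholino replicate 2. The part of morpholino replicate 3 of 16 hpf in the results was not tested. Where a log2 difference given for a gene moved by more than 1.5 times without it, the value without it stands beside. Scaling by library totals alone would have moved the median log2 difference of all transcripts from -0.04 to -0.25, so differences are read relative to the TMM-scaled bulk.

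No difference in the RNA of the target beyond the spread between libraries was detected at 16 hpf. The rnf20 transcript stood at 80 and 69.3 CPM in wild type and at 72.7, 67.1 and 55.4 CPM in the morpholino libraries. The arms overlapped, and the log2 difference (morpholino minus wild type) was -0.20 ± 0.203 (SE; edgeR adjusted p = 0.679), or -0.10 without morpholino replicate 3. Over 12 to 15 hpf, in other libraries, rnf20 RNA was higher in morpholino embryos by a mean log2 difference of 0.44 (edgeR adjusted p = 0.00869). The differences at 12, 13, 14 and 15 hpf were 0.92, 0.54, 0.13 and 0.18. The mean without replicate 3 at any hour was 0.32. Its partner rnf40 stood at 86.5 and 96.5 CPM in wild type and at 119, 114 and 93.9 CPM in the morpholino libraries, with a log2 difference of 0.26 (edgeR adjusted p = 0.586), and over 12 to 15 hpf it too was higher, by a mean of 0.57 (edgeR adjusted p = 0.00185). The RNA level of the target is no check of a morpholino that blocks translation, and the labels do not say which kind was used.

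Of 16967 transcripts tested, 34 (0.2%) differed between the arms at 16 hpf at an adjusted p under 0.05 and are called below; 22 (0.13%) were higher and 12 (0.0707%) were lower in morpholino embryos. Adjusted p-values are from edgeR's quasi-likelihood test with Benjamini-Hochberg adjustment over all transcripts, fitted to all 25 libraries so that the groups shared 1 estimate of the spread. At an unadjusted p under 0.05 there were 2066 transcripts (12.2%), 1437 higher and 629 lower. In each of the 34 the arms did not overlap, a pattern that 31.6% of all tested transcripts showed. Without morpholino replicate 3, 49 transcripts (0.289%) were called, 26 higher (0.153%) and 23 lower (0.136%), 29 of them shared with the 34; all 34 kept their sign. Without replicate 3 of the morpholino arm at any hour, 390 transcripts (2.34%) were called, 209 higher (1.25%) and 181 lower (1.09%), and they included all 34. The calls also rested on both wild-type libraries: without wild-type replicate 1, 5 transcripts were called, 0 of them among the 34. Without wild-type replicate 2, edgeR called 0, with 1109 at an unadjusted p under 0.05. The 5 libraries fitted alone gave 0 calls, with 404 at an unadjusted p under 0.05, against 335 calls by DESeq2 on all libraries.

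**Figure D1:**
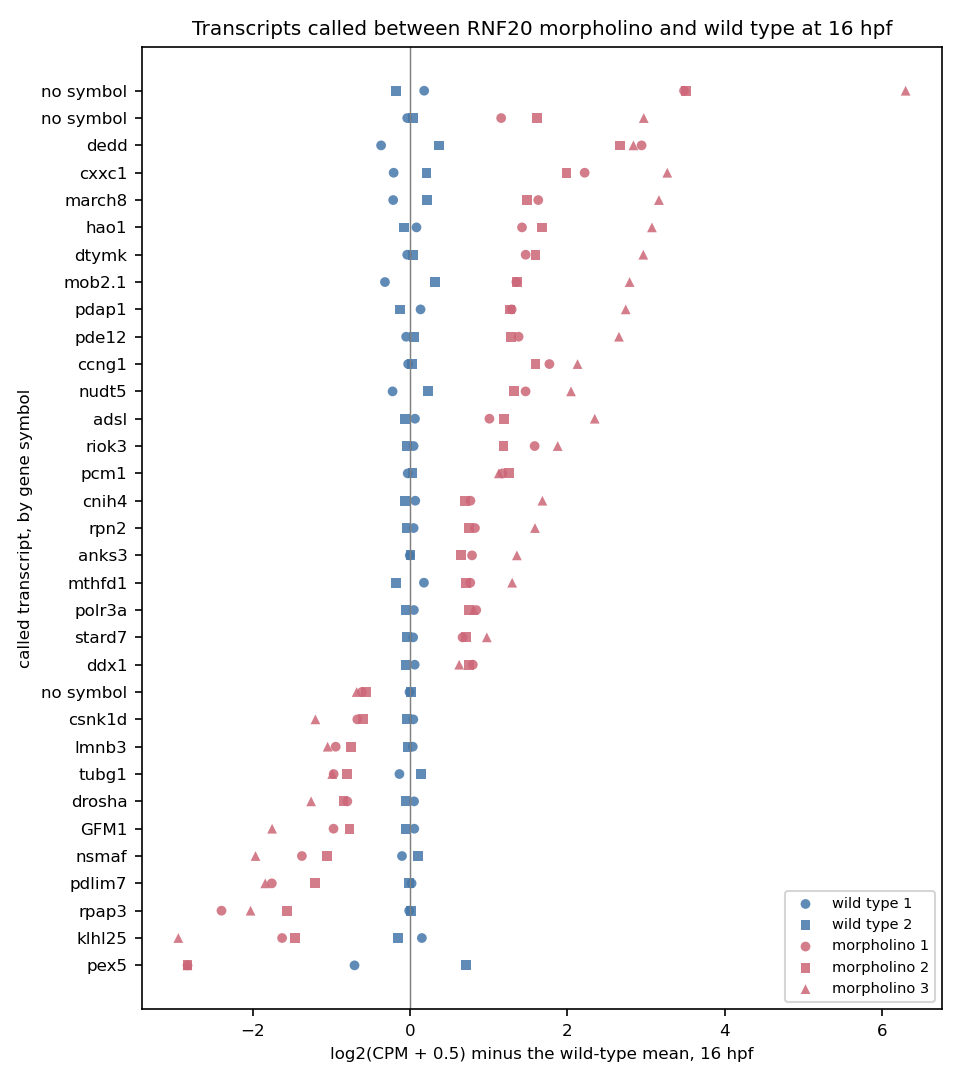
Each row is 1 of 33 of the 34 transcripts called at 16 hpf, and each point is 1 library's log2(CPM + 0.5) minus the mean of the 2 wild-type libraries (blue, wild type; red, morpholino; the symbol marks the replicate number). The arms are separate in all 33 rows, and morpholino replicate 3 (triangles) lies beyond the other 2 morpholino libraries in most of the rises.

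Among 50 tested transcripts of p53 targets and other cell death genes, 2 were called higher and none lower, where 0.13% and 0.0707% of all were. At an unadjusted p under 0.05, 11 were higher and 2 lower, beside 1437 and 629 of all 16967 transcripts. The transcription factor p53 is stabilised after DNA damage and other stress and induces genes that halt the cell cycle or start cell death. Cyclin G1 (ccng1), a direct p53 target, stood at 198 and 205 CPM in wild type and at 689, 610 and 883 CPM in the morpholino libraries. Every morpholino library lay well above both wild-type libraries, with means of 727 ± 141 CPM (SD, n = 3) and 201 ± 5.46 CPM (SD, n = 2). The log2 difference was 1.85 ± 0.251 (SE; edgeR adjusted p = 0.00458), and 1.69 without morpholino replicate 3 (edgeR adjusted p = 0.0123). A transcript of dedd, which encodes a nuclear protein with a death effector domain, stood at 0.657 and 1.43 CPM in wild type and at 11, 9 and 10.2 CPM in the morpholino libraries, with a log2 difference of 3.29 ± 0.62 (SE; edgeR adjusted p = 0.0424). The second tested dedd transcript was not called (log2 difference 0.37, edgeR adjusted p = 0.534, and 0.24 without morpholino replicate 3). Reads shared between transcripts of a gene may have been split between them.

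All 3 morpholino libraries lay above both wild-type libraries in 17 of the 50 tested transcripts of this list (34%, against 12.6% of all tested transcripts) and below in 5 (10%, against 19%). The median log2 difference from the wild-type mean was 0.22, 0.16 and 0.30 in morpholino replicates 1, 2 and 3, against -0.01, -0.01 and -0.25 over all tested transcripts. Without replicate 3 at any hour, 11 of the members were called, all higher, where 1.25% of all transcripts were. With library totals alone the median of the list was 0.00, against -0.25 for all transcripts.

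The members named next were chosen after their values were seen, and none of them passed the test with all libraries. The apoptosis-enhancing nuclease aen stood at 26 and 26.7 CPM in wild type and at 68.9, 61.2 and 64.8 CPM in the morpholino libraries (log2 difference 1.301, edgeR adjusted p = 0.0543). The receptor gene eda2r stood at 2.75 and 1.77 CPM in wild type and at 22.6, 11.1 and 11.5 CPM in the morpholino libraries (log2 difference 2.73, edgeR adjusted p = 0.0609). The p53 ubiquitin ligase mdm2, itself a p53 target, stood at 74 and 79.6 CPM in wild type and at 160, 133 and 137 CPM in the morpholino libraries (log2 difference 0.90, edgeR adjusted p = 0.144). In these 3 genes the arms were separate and replicate 3 lay among or near the other morpholino libraries. The polo-like kinase plk2 stood at 50.8 and 56.7 CPM in wild type and at 157, 124 and 157 CPM in the morpholino libraries (log2 difference 1.44, edgeR adjusted p = 0.247). Without replicate 3 at any hour, edgeR called aen (adjusted p = 0.00292), eda2r (0.00714), mdm2 (0.00187) and plk2 (0.00356), all higher. The same fit called tp53inp1, a pro-apoptotic p53 target, with a log2 difference of 1.39, PIDD1, a scaffold of caspase-2 activation, with 1.15, the DNA polymerase gene polk with 1.34, and bcl2l11, which encodes the death protein Bim, with 0.90. In these last 4 genes replicate 3 lay below both wild-type libraries, at 4.24, 3.73, 4.32 and 2.88 CPM.

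**Figure D2:**
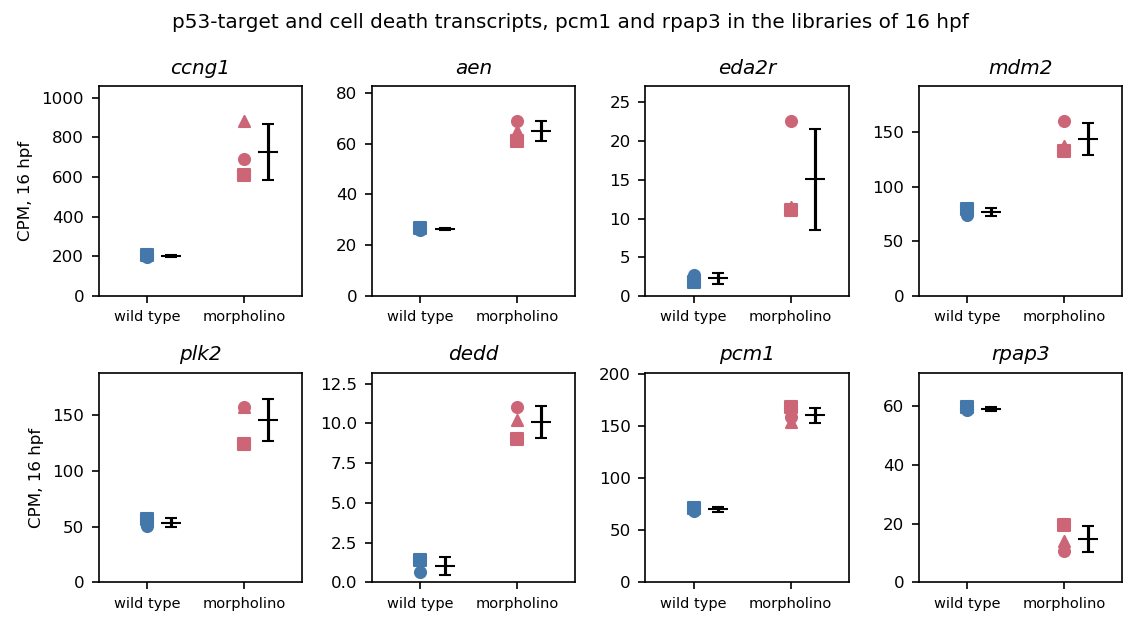
CPM at 16 hpf of 6 transcripts of p53 targets and cell death genes, of pcm1 and of rpap3 in each library (blue, wild type; red, morpholino; the symbol marks the replicate number), with the mean and SD of each arm in black. The arms are separate in all 8 panels, with morpholino libraries above wild type in 7 and below in 1.

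Among genes of H2B ubiquitination, the PAF1 complex and COMPASS, 1 of 38 tested transcripts was called, where 0.2% of all were. It was 1 of the 4 tested transcripts of cxxc1, whose product, CFP1, binds unmethylated CpG DNA as a subunit of the SETD1 COMPASS complex. It stood at 3.12 and 4.34 CPM in wild type and at 19, 16.1 and 39.9 CPM in the morpholino libraries, a log2 difference of 2.74 ± 0.397 (SE; edgeR adjusted p = 0.00737), or 2.23 without morpholino replicate 3. The other 3 cxxc1 transcripts were more abundant and were not called, with log2 differences of 0.74, 0.02 and 0.41. Without morpholino replicate 3 these were 0.30, -0.02 and 0.03. All 3 morpholino libraries lay above both wild-type libraries in 18.4% of the list, against 12.6% of all tested transcripts, and below in 7.89%, against 19%, and the median of the list was 0.06. Without replicate 3 at any hour, supt16h, which encodes a subunit of the FACT histone chaperone, was also called, as lower (log2 difference -0.62, edgeR adjusted p = 0.00585). It stood at 251 and 247 CPM in wild type and at 152, 170 and 162 CPM in the morpholino libraries.

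On the lists of ciliary genes 1 transcript was called as lower with all libraries, that of rpap3. Its product is a subunit of R2TP, a co-chaperone complex of HSP90 that takes part in the assembly of dynein arms and of other large complexes, among them RNA polymerase II. The rpap3 transcript stood at 58.6 and 59.6 CPM in wild type and at 10.8, 19.6 and 14.1 CPM in the morpholino libraries. The arms were far apart and replicate 3 lay between the other morpholino libraries. The log2 difference was -1.99 ± 0.291 (SE; edgeR adjusted p = 0.00737), and -1.96 without replicate 3 (edgeR adjusted p = 0.0222). Of the 23 tested transcripts of dynein arm assembly and R2TP genes, rpap3 was the 1 called, where 0.2% of all were. At an unadjusted p under 0.05, 5 were higher and 1 lower. In all 3 morpholino libraries 5 lay above wild type (21.7%, against 12.6% of all) and 3 below (13%, against 19%). Without replicate 3 at any hour, spag1, an R2TP-like assembly factor, was called as higher, with a log2 difference of 0.54 (edgeR adjusted p = 0.0287).

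The structural genes of the axoneme showed no call. None of the 26 tested transcripts of dynein arm and docking genes passed the test, by edgeR with or without replicate 3 at any hour. In 1 the morpholino libraries lay above both wild-type libraries (3.85%, against 12.6% of all) and in 2 below (7.69%, against 19%); at an unadjusted p under 0.05 there were 1 higher and 2 lower. The list median was 0.16 in morpholino replicate 1, -0.05 in replicate 2 and -0.70 in replicate 3. Of 86 transcripts of radial spokes, the central pair, the nexin link and doublets, none was called, 9 lay above (10.5%, against 12.6%) and 13 below (15.1%, against 19%). At an unadjusted p under 0.05, 5 of the 86 were higher and 1 lower. The 1 dynein arm transcript above wild type was that of the light chain gene dnal4, at 51.6 and 50.8 CPM in wild type and at 67.4, 63 and 99.9 CPM in the morpholino libraries (log2 difference 0.58, edgeR adjusted p = 0.266, and 0.35 without replicate 3). The alpha-tubulin gene tuba1a had the smallest p of the 86, at 6.41 and 7.03 CPM in wild type and at 9.15, 9.04 and 28.6 CPM in the morpholino libraries (log2 difference 1.21, edgeR adjusted p = 0.308, and 0.43 without replicate 3). In both the arms were separate and replicate 3 was the highest. Other members with the arms apart, chosen after their values were seen, were wdr78, an inner dynein arm subunit, at 25.6 and 25.6 CPM in wild type and 17.8, 15.9 and 9.15 CPM in the morpholino libraries (log2 difference -0.84, edgeR adjusted p = 0.327), and CFAP43, at 35.4 and 30.7 CPM and at 21.2, 22.1 and 5.93 CPM (log2 difference -1.003, edgeR adjusted p = 0.351, and -0.61 without replicate 3). Both were lower over 12 to 15 hpf, with mean log2 differences of -0.80 (edgeR adjusted p = 0.00283) and -0.91 (edgeR adjusted p = 0.00621). Without replicate 3 at any hour these means were -0.62 and -0.75. Intraflagellar transport and BBSome genes, which carry cargo along the cilium, gave no call among 60 transcripts (2 higher and 1 lower at an unadjusted p under 0.05). In all 3 morpholino libraries 5 lay above wild type (8.33%, against 12.6% of all) and 13 below (21.7%, against 19%). The one with the smallest p, ift20, stood at 20.6 and 22.4 CPM in wild type and at 30.5, 30.1 and 38 CPM in the morpholino libraries (log2 difference 0.61, edgeR adjusted p = 0.0967). Without replicate 3 at any hour, 2 of the 60 were called, ift20 and wdr19, both higher, where 1.25% of all were. For wdr19 the values were 12.3 and 11.9 CPM in wild type and 23.8, 20.4 and 13.1 CPM in the morpholino libraries.

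On the list of multiciliated cell regulators and centriole genes, 1 transcript was called higher and none lower, where 0.13% and 0.0707% of all were. At an unadjusted p under 0.05, 12 were higher and 0 lower, beside 1437 and 629 of all 16967 transcripts. In 15 of the 45 tested transcripts all 3 morpholino libraries lay above both wild-type libraries (33.3%, against 12.6%), and in 4 they lay below (8.89%, against 19%). The list median was close to the same in the 3 morpholino libraries, at 0.26, 0.29 and 0.25, and 0.06 with library totals alone, against -0.25 for all transcripts there. The called transcript was that of pcm1, which encodes the scaffold of centriolar satellites, the granules that deliver proteins to centrosomes and cilia. It stood at 68.7 and 71.7 CPM in wild type and at 159, 168 and 154 CPM in the morpholino libraries, a log2 difference of 1.19 ± 0.152 (SE; edgeR adjusted p = 0.00458), or 1.22 without replicate 3. A second pcm1 transcript was at 65.1 CPM in morpholino replicate 3 and between 0 and 0.914 CPM in the other 4 libraries.

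Uncalled members of this list, chosen after their values were seen, included the regulators at the top of the multiciliated programme. MCIDAS, the coregulator that starts it, stood at 0.74 and 1.66 CPM in wild type and at 3.64, 8.26 and 20.6 CPM in the morpholino libraries (log2 difference 3.18, edgeR adjusted p = 0.174). The cyclin gene ccno stood at 1.73 and 3.31 CPM in wild type and at 8.05, 14.3 and 65.9 CPM in the morpholino libraries (log2 difference 3.55, edgeR adjusted p = 0.183, and 2.17 without replicate 3). The deuterosome gene deup1, needed to make many centrioles, stood at 4.03 and 7.08 CPM in wild type and at 13.1, 14.3 and 30.4 CPM in the morpholino libraries (log2 difference 1.79, edgeR adjusted p = 0.104). In these 3 genes the arms were separate and replicate 3 was the highest. The ciliogenic factor foxj1 differed less, at 47.5 and 52.5 CPM in wild type and at 59, 63.2 and 112 CPM in the morpholino libraries (log2 difference 0.64, edgeR adjusted p = 0.377, and 0.29 without replicate 3). The deuterosome gene ccdc78 lay below, at 11.8 and 11 CPM in wild type and at 5.73, 7.29 and 0 CPM in the morpholino libraries (log2 difference -1.375, edgeR adjusted p = 0.569, and -0.81 without replicate 3), and it was lower over 12 to 15 hpf, by a mean of -1.82 (edgeR adjusted p = 0.0233). Set beside wild type of 14 hpf, the log2 differences of the same morpholino libraries were 0.20 for MCIDAS, 1.02 for ccno and 0.66 for deup1. The median of the list against that younger wild type was -0.03, and in wild type alone the list fell over 12 to 15 hpf, with a median slope of -0.18 log2 per hour. Centrosomal tubg1, gamma-tubulin, moved the other way: it stood at 13.8 ± 1.91 CPM (SD, n = 2) in wild type and at 6.78, 7.7 and 6.69 CPM in the morpholino libraries (log2 difference -0.97, edgeR adjusted p = 0.0479, and 0.0538 without replicate 3).

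Among the other called rises, the kinase gene riok3 stood at 117 and 110 CPM in wild type and at 341, 259 and 418 CPM in the morpholino libraries, a log2 difference of 1.58 (edgeR adjusted p = 0.017). Several called rises were steepest in replicate 3. The glycolate oxidase gene hao1 stood at 16.5 and 14.7 CPM in wild type and at 42.6, 50.8 and 135 CPM in the morpholino libraries. The thymidylate kinase gene dtymk stood at 18.4 and 19.4 CPM in wild type and at 53.2, 58.1 and 151 CPM in the morpholino libraries. Their log2 differences were 2.28 and 2.21, and 1.58 and 1.56 without replicate 3, and edgeR called both in either fit. The same held of pdap1 (1.95 and 1.28), the purine synthesis gene adsl (1.70 and 1.14), pde12, a nuclease that trims mitochondrial poly(A) tails (1.93 and 1.34), rpn2, a subunit of the oligosaccharyltransferase (1.11 and 0.78), and cnih4, an export receptor of the endoplasmic reticulum (1.13 and 0.74). The folate enzyme gene mthfd1, the ankyrin repeat gene anks3, the lipid carrier gene stard7, the helicase gene ddx1 and polr3a, the largest subunit of RNA polymerase III, were called with log2 differences of 0.94, 0.97, 0.79, 0.73 and 0.81. Calls that were lost without replicate 3 were nudt5 (edgeR adjusted p = 0.0469 with it and 0.081 without), the membrane ubiquitin ligase gene march8 (0.0469 and 0.0531), mob2.1 (0.0488 and 0.0604), tubg1 and a transcript without a symbol.

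Besides rpap3 and tubg1, the called falls included pdlim7, lmnb3 and drosha. The PDZ and LIM domain gene pdlim7, whose product binds actin and lies at the Z-disc of muscle, stood at 231 and 225 CPM in wild type and at 67, 98.2 and 63.2 CPM in the morpholino libraries. The fall was of similar size in all 3 libraries, and the log2 difference was -1.58 ± 0.214 (SE; edgeR adjusted p = 0.00458), or -1.47 without replicate 3. The lamin gene lmnb3 stood at 109 and 104 CPM in wild type and at 55, 63 and 51.2 CPM in the morpholino libraries (log2 difference -0.91, edgeR adjusted p = 0.0213). The microRNA-processing nuclease gene drosha stood at 38.4 and 35.8 CPM in wild type and at 21.1, 20.4 and 15.2 CPM in the morpholino libraries (log2 difference -0.97, edgeR adjusted p = 0.0352). The gene nsmaf fell by 1.47 on the log2 scale, the Cullin adapter gene klhl25 by 2.09, the mitochondrial elongation factor gene GFM1 by 1.13 and the kinase gene csnk1d by 0.81, and edgeR called these 4 without replicate 3 too.

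The called fall of pex5 was of 1 among several tested transcripts of the gene. The called transcript of pex5, the import receptor of peroxisomes, was at 1.68 and 5.31 CPM in wild type and had 0 counts in all 3 morpholino libraries, where 3 counts would have been 0.165, 0.138 and 0.254 CPM. Of the 3 other pex5 transcripts, none was called, and 2 had higher values in the morpholino libraries. How estimated counts were split among transcripts of a gene is part of these values. The genes riok3, rpn2, march8, mob2.1, pdlim7, drosha and mdm2 also had 2 tested transcripts each, and the values given are of 1.

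Lists of heart, muscle and blood genes gave 1 call, and their medians were far lower in replicate 3 than in the other morpholino libraries. Of 52 tested transcripts of heart and cardiac mesoderm genes, none was called (2 higher and 2 lower at an unadjusted p under 0.05), and the median was -0.05 and -0.02 in morpholino replicates 1 and 2 and -1.19 in replicate 3. The signal gene fgf8 had the smallest p of the heart list, at 29.1 and 38.6 CPM in wild type and at 40, 42.9 and 111 CPM in the morpholino libraries (log2 difference 0.93, edgeR adjusted p = 0.315, and 0.29 without replicate 3). The cardiac factor nkx2-5, chosen after its values were seen as were the other uncalled genes named after it here, stood at 31.8 and 43.5 CPM in wild type and at 29.8, 43 and 34.4 CPM in the morpholino libraries, with the arms overlapping (log2 difference -0.07, edgeR adjusted p = 0.945). The atrial myosin light chain myl4 stood at 53.2 and 18.1 CPM in wild type and at 12.6, 11.4 and 1.44 CPM in the morpholino libraries (log2 difference -2.06, edgeR adjusted p = 0.382), so the 2 wild-type libraries differed more from each other than replicate 2 of wild type did from morpholino replicate 1. The cardiac factor hand2 stood at 14.7 and 12.7 CPM in wild type and at 11.6, 11.1 and 6.35 CPM in the morpholino libraries (log2 difference -0.50, edgeR adjusted p = 0.726, and -0.27 without replicate 3). Of 63 transcripts of paraxial mesoderm and muscle, pdlim7 was the 1 called, where 0.2% of all were. At an unadjusted p under 0.05, 6 were higher and 1 lower. All 3 morpholino libraries lay above both wild-type libraries in 6 (9.52%, against 12.6% of all) and below in 17 (27%, against 19%). The wild-type libraries differed from each other by a median of 0.35 log2 over this list. The muscle creatine kinase ckm showed that spread, at 71.2 and 30.8 CPM in wild type and at 28.1, 21.7 and 9.49 CPM in the morpholino libraries. The myogenic factor myod1 stood at 56 and 62.3 CPM in wild type and at 67.8, 65.2 and 91.6 CPM in the morpholino libraries (edgeR adjusted p = 0.457). For 29 blood and endothelial transcripts no call was made (0 at an unadjusted p under 0.05 as well), and the medians were 0.01, 0.11 and -1.21.

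Among 32 left-right and Nodal transcripts, none was called with all libraries (4 higher and 3 lower at an unadjusted p under 0.05). The smallest p was that of gdf3, a ligand of the TGF-beta family, at 4.48 and 7.25 CPM in wild type and at 8.55, 9.55 and 33.2 CPM in the morpholino libraries (log2 difference 1.54, edgeR adjusted p = 0.266, and 0.63 without replicate 3). The metalloprotease gene mmp21, in which human variants disturb the left-right axis, stood at 2.14 and 3.66 CPM in wild type and at 5.29, 8.07 and 9.23 CPM in the morpholino libraries (log2 difference 1.38, edgeR adjusted p = 0.419). The Nodal coreceptor gene tdgf1.3 was near the counting limit in wild type, at 0.123 and 0.171 CPM, and stood at 0.276, 1.43 and 3.9 CPM in the morpholino libraries (edgeR adjusted p = 0.353). In all 3 genes the morpholino libraries lay above wild type, and mmp21 and tdgf1.3 were chosen after their values were seen. Without replicate 3 at any hour, 2 of the 32 were called as lower and 0 as higher, where 1.09% and 1.25% of all were. These were the Nodal signal transducer smad2 (log2 difference -0.52, edgeR adjusted p = 0.048) and the receptor acvr2b (-0.33, edgeR adjusted p = 0.0485). For acvr2b the values were 40.3 and 40.7 CPM in wild type and 32.8, 31.1 and 10.2 CPM in the morpholino libraries. For smad2 they were 30.1 and 38.5 CPM and 24.9, 22.6 and 10.8 CPM. In smad2 and acvr2b every morpholino library lay below both wild-type libraries, and replicate 3 was the lowest.

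All 3 morpholino libraries lay below both wild-type libraries in 20 of 41 tested transcripts of proneural factors and neurons (48.8%, against 19% of all), and the list median was -0.22, -0.26 and -1.06. None of the 41 passed the edgeR test (1 higher and 1 lower at an unadjusted p under 0.05). The smallest p was that of the homeobox gene phox2a, at 1.23 and 2.06 CPM in wild type and at 3.58, 2.68 and 4.07 CPM in the morpholino libraries, all above wild type (log2 difference 1.065, edgeR adjusted p = 0.371). Members chosen after their values were seen were the RNA-binding neuronal gene elavl3, at 61.8 and 62.9 CPM in wild type and at 55.3, 52.1 and 21.7 CPM in the morpholino libraries, the neuronal tubulin tubb3, at 34 and 25.8 CPM and at 17.6, 15.4 and 7.28 CPM, and the neurogenic factor ebf2, at 83.2 and 88 CPM and at 61, 61.9 and 62.3 CPM. Their log2 differences were -0.53, -1.15 and -0.47, with edgeR adjusted p of 0.419, 0.563 and 0.615, and without replicate 3 that of elavl3 was -0.22. In wild type the list rose over 12 to 15 hpf, with a median slope of 0.23 log2 per hour. Placode and eye genes lay below in 9 of 22 transcripts (40.9%, against 19% of all), with medians of -0.21, -0.07 and -0.13 and 0 calls (0 at an unadjusted p under 0.05 as well). Genes of the epidermis, goblet cells and ionocytes lay above in 9 of 36 (25%, against 12.6%) and below in 3 (8.33%, against 19%), with medians of 0.17, 0.14 and 0.07, and none was called (7 higher and 0 lower at an unadjusted p under 0.05).

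Several lists differed in replicate 3 by far more than in replicates 1 and 2. Extracellular matrix and adhesion transcripts had medians of -0.03, -0.11 and -2.29, with 0 of 46 called by edgeR and 0 higher and 2 lower at an unadjusted p under 0.05. Fibronectin, fn1, stood at 1280 and 1320 CPM in wild type and at 1270, 1170 and 376 CPM in the morpholino libraries, and the collagen gene col2a1 at 684 and 698 CPM and at 657, 628 and 141 CPM (both chosen after their values were seen). The laminin gene lama1 differed in all 3, at 206 and 236 CPM in wild type and at 150, 138 and 40.7 CPM in the morpholino libraries (log2 difference -1.01, edgeR adjusted p = 0.266; -0.62 without replicate 3 and, without replicate 3 at any hour, -0.61, edgeR adjusted p = 0.00603). Mitochondrially encoded transcripts, of which 0 of 13 were called (6 higher and 0 lower at an unadjusted p under 0.05), had medians of 0.07, 0.21 and 1.98, and their summed level was 11800 and 10700 CPM in wild type and 12300, 13400 and 42300 CPM in the morpholino libraries. Cell cycle and replication genes, with 0 of 72 transcripts called (10 higher and 1 lower at an unadjusted p under 0.05), had medians of -0.12, -0.01 and 0.75. In that list, without replicate 3 at any hour, edgeR called 1 transcript higher and 2 lower, where 1.25% and 1.09% of all were. The mitotic phosphatase gene cdc25c was lower (log2 difference -0.94, edgeR adjusted p = 0.00319). It stood at 46 and 47.7 CPM in wild type and at 21.8, 26.6 and 35.1 CPM in the morpholino libraries. The kif11 transcript was lower too (-0.37, edgeR adjusted p = 0.0367). Its values were 110 and 106 CPM in wild type and 81.3, 84.9 and 120 CPM in the morpholino libraries. The left-out replicate 3 thus lay above both wild-type libraries. A transcript of mcm5, 1 of 2 tested, was higher (edgeR adjusted p = 0.0367), at 0 CPM in both wild-type libraries and at 2.54, 1.38 and 0.508 CPM in the morpholino libraries. Over the alternative settings, sums per symbol among them, the log2 difference for mcm5 ranged from 0.463 to 8.25. Maternal, germ plasm and egg coat genes, whose RNA is laid down in the egg and cleared later, lay above wild type in 18 of 58 transcripts (31%, against 12.6%) and below in 3 (5.17%, against 19%), with medians of 0.10, 0.40 and 1.32. None of them was called (14 higher and 0 lower at an unadjusted p under 0.05). The egg coat gene zp4 stood at 22.1 and 31.5 CPM in wild type and at 48.7, 66 and 102 CPM in the morpholino libraries (log2 difference 1.43, edgeR adjusted p = 0.0967).

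Patterning lists gave no edgeR call with all libraries. Their counts at an unadjusted p under 0.05 stand beside 1437 higher and 629 lower of all 16967 transcripts. Neural plate genes had medians of -0.13, -0.06 and 0.19 over 50 transcripts (5 higher and 1 lower at an unadjusted p under 0.05), and Hox genes -0.14, -0.18 and -0.40 over 40 (2 higher and 2 lower). Hox transcripts lay below wild type in all 3 morpholino libraries in 27.5% of cases, against 19% of all. Genes of axis signals and their targets had medians of 0.06, 0.21 and 0.62 over 59 transcripts (11 higher and 0 lower), and retinoic acid genes -0.06, 0.04 and 0.27 over 25 (4 higher and 0 lower). Within the latter, aldh1a2, the enzyme that makes retinoic acid, stood at 120 and 164 CPM in wild type and at 206, 253 and 447 CPM in the morpholino libraries (log2 difference 1.09, edgeR adjusted p = 0.214, and 0.69 without replicate 3). Neural crest genes had medians of -0.11, -0.01 and -0.77 over 39 transcripts (2 higher and 0 lower). Their pigment enzyme gene dct stood at 1.56 and 1.83 CPM in wild type and at 5.07, 5.49 and 19.4 CPM in the morpholino libraries (log2 difference 2.55, edgeR adjusted p = 0.255, and 1.64 without replicate 3). It was called without replicate 3 at any hour (edgeR adjusted p = 0.031). Endoderm genes had medians of 0.00, 0.12 and 0.00 over 36 transcripts (7 higher and 0 lower), and cement and hatching gland genes 0.31, -0.19 and -1.88 over 11 (1 higher and 0 lower).

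**Figure D3:**
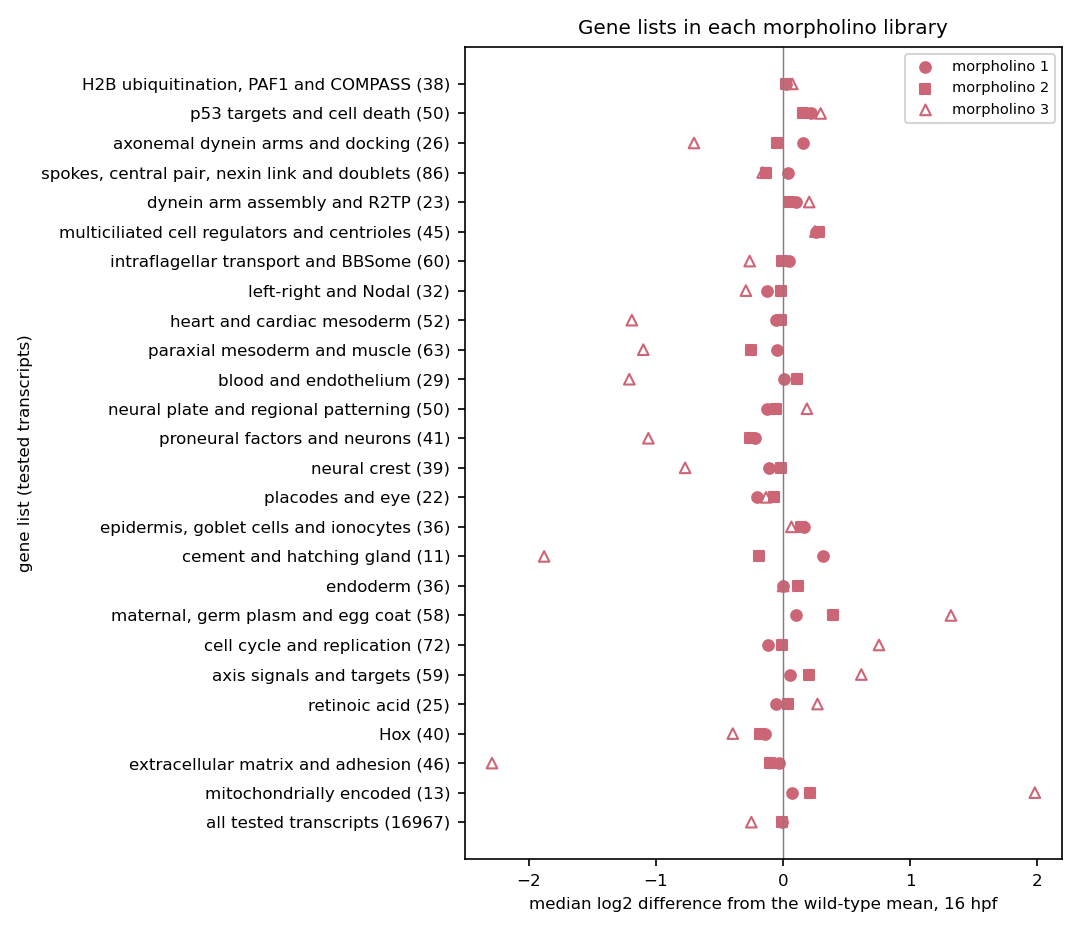
Median log2 difference from the wild-type mean at 16 hpf over the tested transcripts of each gene list (number in brackets), in each morpholino library (filled circles and squares, replicates 1 and 2; open triangles, replicate 3). Replicates 1 and 2 lie within 0.505 log2 of each other in every list, and replicate 3 lies far from them for extracellular matrix (-2.29), mitochondrially encoded (1.98) and cement and hatching gland transcripts (-1.88), among others.

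The position of each library on the wild-type time course was read from the 250 rises and the 250 falls with the smallest p for a straight line through the wild-type means of 12 to 15 hpf. The line used no 16 hpf library, while the spread behind its p came from all 25, and 9 transcripts (0.053%) passed the edgeR test for it. On that scale the wild-type libraries of 16 hpf read as 15.66 and 14.97 hpf. The morpholino libraries of 16 hpf read as 14.63, 14.46 and 13.2 hpf, all below both wild-type libraries. With the transcripts ranked without morpholino replicate 3 of 16 hpf the readings were 15.6 and 15.03 hpf in wild type and 14.64, 14.48 and 12.88 hpf in the morpholino libraries. The gap between morpholino replicate 1 and wild-type replicate 2 was smaller than the gap between the 2 wild-type libraries. Wild-type replicate 1 read later than replicate 2 at each of the 5 hours, and morpholino replicate 3 read earliest of its arm from 13 hpf on. At 16 hpf the rising transcripts had a median log2 difference of -0.61 between the arms (-0.42 without replicate 3), and 139 of 250 (55.6%, against 19% of all) lay below wild type in all 3 morpholino libraries. The falling transcripts had a median of 0.36 (0.25 without replicate 3), and 107 (42.8%, against 12.6%) lay above. None of the 250 rising and 4 of the 250 falling transcripts were among the 34 calls, and these 4 were higher. The background rates were 0.13% for higher and 0.0707% for lower calls. At such rates a count of 0 in 250 says little.

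**Figure D4:**
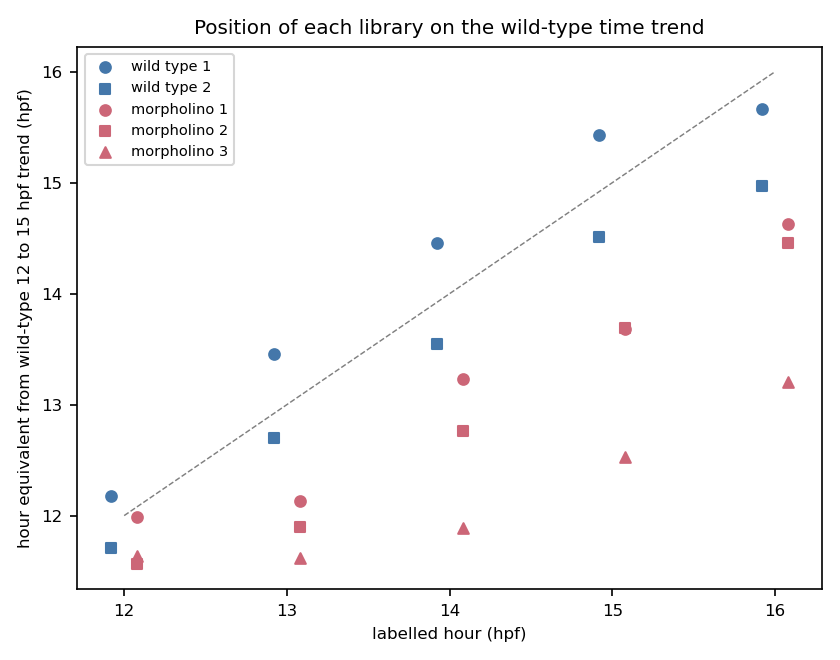
Hour equivalent of each of the 25 libraries on the wild-type trend of 12 to 15 hpf, against its labelled hour (blue, wild type; red, morpholino; the symbol marks the replicate number; dashed line, equal hours). At 16 hpf the wild-type libraries read 15.66 and 14.97 hpf and the morpholino libraries 14.63, 14.46 and 13.2 hpf.

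The same 3 morpholino libraries were therefore also set beside younger wild type. Against wild type of 15 hpf, 15 transcripts (0.0884%) were called, 7 higher (0.0413%) and 8 lower (0.0472%), and against wild type of 14 hpf 19 (0.112%), 10 higher (0.0589%) and 9 lower (0.053%). These comparisons share the morpholino libraries with the one at 16 hpf, so their values are side by side and are no separate evidence. Of the 34 transcripts called at 16 hpf, 9 were called against wild type of 15 hpf and 11 against wild type of 14 hpf, and all 34 had the same sign in both. The median of the rising transcripts was -0.61 against wild type of 16 hpf, -0.37 against 15 hpf and 0.16 against 14 hpf. That of the falling transcripts was 0.36, 0.23 and -0.07. Both sets had been picked for their trend in wild-type libraries that include those of 14 and 15 hpf. The change of these medians from the 15 hpf to the 14 hpf baseline is therefore built in by that choice. It cannot show which hour the morpholino libraries match. For ccng1 the log2 differences were 1.85, 2.21 and 2.40, for rpap3 -1.99, -1.998 and -2.09, for pdlim7 -1.58, -1.46 and -1.29, and for pcm1 1.19, 0.79 and 0.66. Against the younger wild type pcm1 was not called (edgeR adjusted p = 0.0514 and 0.119). The list of p53 targets had medians of 0.27, 0.22 and 0.19, and that of multiciliated cell and centriole genes 0.29, 0.22 and -0.03. The heart factor hand2 differed by -0.50 against wild type of 16 hpf and by 0.37 against wild type of 14 hpf, neither passing the test.

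The transcripts called at 16 hpf differed in the same direction at the earlier hours, in libraries that do not enter the 16 hpf contrast. The labels do not say whether a replicate number marks the same clutch or batch at every hour. Wild-type replicate 1 read later than replicate 2 at each hour, and morpholino replicate 3 had the highest mitochondrial share at each. If the numbers do mark the same material, the hours are repeated measures of it and no separate evidence, which was not tested. In the mean difference over 12 to 15 hpf, edgeR called 3431 of all transcripts (20.2%), 10.2% higher and 10% lower. Of the 34, 33 were called there in the same direction, and the exception was mob2.1 (log2 difference 0.39, edgeR adjusted p = 0.137). Both contrasts came from the same fit and shared its estimate of the spread of each transcript, so the calls are not independent. All 34 had the same sign there, as 70.4% of all transcripts did. All 22 rises were higher at each of the 4 earlier hours, as 28% of all transcripts were, and all 12 falls were lower at each, as 29.2% were. The rise of ccng1 was 2.09, 1.91, 1.997 and 1.72 on the log2 scale at 12, 13, 14 and 15 hpf, and 1.85 at 16 hpf. The fall of rpap3 was -1.90, -1.78, -2.25 and -2.13, and then -1.99. The rise of pcm1 was 0.80, 0.60, 1.11 and 1.12, and then 1.19. Without replicate 3 at any hour, 367 of the 390 transcripts called at 16 hpf were also called in the same direction in the earlier hours, where 34.1% of all transcripts were called. There too the contrasts shared the estimate of the spread.

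**Figure D5:**
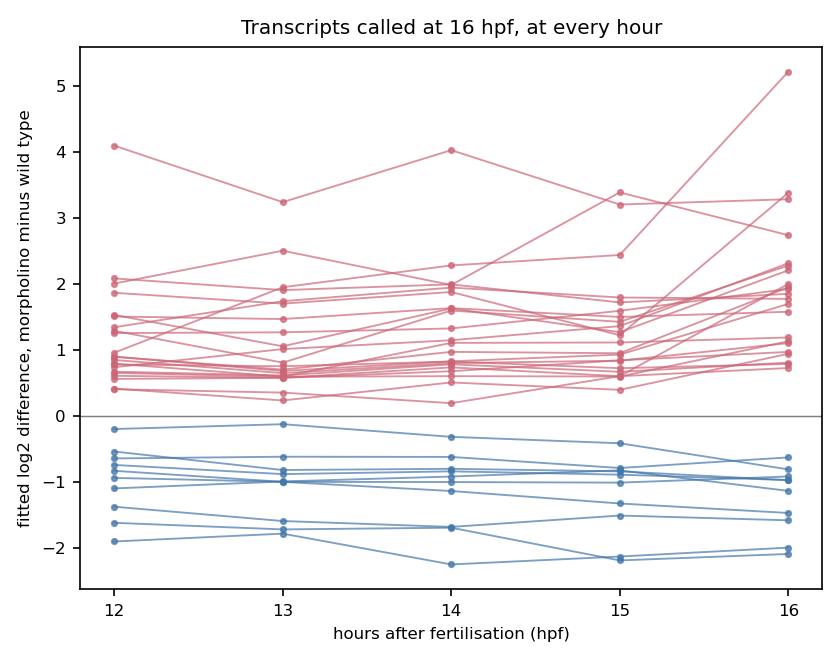
Fitted log2 difference (morpholino minus wild type) at each hour for 32 of the 34 transcripts called at 16 hpf (red, higher; blue, lower; pex5, with 0 counts in the morpholino libraries, is among those not drawn). Every line stays on its own side of 0 at all 5 hours, and several rises are steeper from 15 to 16 hpf. Of these, hao1, dtymk and pdap1 stand at 2.28, 2.21 and 1.95 at 16 hpf, and at 1.58, 1.56 and 1.28 without morpholino replicate 3 (not drawn). No transcript passed the edgeR test of a departure at 16 hpf.

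No transcript passed the test of a difference at 16 hpf that departs from that of the other hours. EdgeR called 0, with 462 (2.72%) at an unadjusted p under 0.05 and a smallest adjusted p of 0.962, and DESeq2 called 14. In simulated counts this contrast recovered 9% of 2-fold and 55% of 4-fold changes. The changes were placed only in transcripts with a mean log2 CPM above 1, so these rates do not cover transcripts at lower counts. Counts were drawn independently for each library, without a replicate effect across hours or a library like morpholino replicate 3. The transcripts with the smallest p in this contrast were mostly single transcripts of a gene at low counts. A rad54l2 transcript stood at 4.73 and 5.94 CPM in wild type and at 38.2, 42.3 and 150 CPM in the morpholino libraries (log2 difference 3.85, edgeR adjusted p = 0.057), with a mean log2 difference of -0.04 over 12 to 15 hpf. The second rad54l2 transcript stood at 216 and 222 CPM in wild type and at 207, 181 and 14.5 CPM in the morpholino libraries. Of 2 bhlhe40 transcripts, one stood at 0.247 and 0.228 CPM in wild type and at 3.42, 3.14 and 5.17 CPM in the morpholino libraries. The other stood at 2.51 and 2.57 CPM in wild type and had 0 counts in the morpholino libraries. The 2 transcripts of this circadian repressor gene thus lay on opposite sides, and neither was called (edgeR adjusted p = 0.127 and 0.144). Among called transcripts, mob2.1 (0.00153), a transcript without a symbol (0.00407) and csnk1d (0.00735) had the smallest unadjusted p for a departure, and all 3 fail the correction.

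The authors' deposited table of the same comparison, made with sleuth, tested 16148 transcripts and gave 7 with a q-value under 0.05. Its columns name no arm, so the sense of its effect, wild type minus morpholino, was read from the counts of the same libraries. Per that table, 6 of the 7 were higher in morpholino embryos: eda2r (q = 0.00266), the complement receptor gene c3ar1 (q = 0.0104), a transcript without a symbol (q = 0.012), a second transcript of march8 (q = 0.0185), the kinase gene pdk4 (q = 0.0185) and ccng1 (q = 0.0242). The 1 lower transcript in the authors' deposited table was rpap3 (q = 0.0159). EdgeR called 2 of the 7, ccng1 and rpap3. All 33 of the 34 called transcripts that the table lists had the same direction there. The libraries are the same and the sense was set from their counts, so this is no separate evidence.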

How the data were processed

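For all 25 libraries of poly(A)-selected embryo RNA, the authors deposited estimated counts per transcript, obtained with kallisto per the submitters' processing notes. TPM values in the same deposited tables were used for a check of units. The authors' deposited comparison table of 16 hpf, made with sleuth per those notes, holds p-values, q-values and effects on the natural log scale, whose sense (wild type minus morpholino) was read from the counts (r = -0.9298 against the log2 differences of 5063 abundant transcripts), and it gave the gene symbols. For both tools the version, the options and the transcriptome are not given in the sources used here.

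Estimated counts, as deposited by the authors, were rounded. Tests were run with edgeR 4.0.16 on limma 3.58.1, with DESeq2 1.42.0 as the alternative, in R 4.3.3. Plots were drawn with matplotlib 3.10.9. Transcripts passing filterByExpr over the 10 groups (16967 of 22891, 74.1%; 14700 with a symbol) were scaled by TMM and fitted with 1 mean per group by the quasi-likelihood test, with Benjamini-Hochberg adjustment. SE is the fitted log2 difference over the root of its F statistic, SD is over libraries, and CPM differences per library used a prior count of 2. Set tests were not run. Lists are described by counts and medians. On simulated counts of the 16 hpf comparison 15% of 2-fold and 70% of 4-fold changes were called, and 0.0119% of unchanged transcripts. The simulation held no replicate effect across hours and no library like morpholino replicate 3, so these rates may not hold for the real libraries. Counts of 3 in a library served as the floor beside values of 0.

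Named genes were rnf20 and rnf40, up to 4 called transcripts of each of 25 lists (1069 symbols) by p, or the 1 with the smallest p where none was called, the 15 largest called rises and falls whose log2 CPM averaged 1 or more, and the 8 smallest p for a departure at 16 hpf. Further genes were added after their values were seen. Some genes are not reported here. The comparison, members and lists were chosen with earlier results of these data known. Some lists share members (18 transcripts). No sequences were used. Alternatives were another scaling, DESeq2, other filters, sums per symbol, fewer libraries and a replicate block. Library totals alone, a block within each arm and the mean of 12 to 15 hpf were added after the data were seen.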

Additional observations from a re-analysis of the deposited data

How the results depend on the processing

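The count of 34 calls at 16 hpf moved by more than 1.5 times with DESeq2 (335), no filter on low counts (20), the 5 libraries of 16 hpf alone (0), and without replicate 3 of the morpholino arm at any hour (390); leaving out 1 library of 16 hpf gave 0 to 55. All 34 were among the calls of DESeq2 and of the fit without replicate 3 at any hour, and 20 were among the 34 calls with library totals alone. Replicate numbers were shared by 2 pairs of libraries at 16 hpf, whose deviations from the group means correlated at 0.0625 and 0.0227. The labels do not say what the numbers mark, and they were not taken to pair the samples. These correlations cannot exclude pairing, because they cover 16 hpf alone and the morpholino mean includes the outlying replicate 3. In the timing readings wild-type replicate 1 was later than replicate 2 at all 5 hours. Morpholino replicate 1 read later than replicate 2 at 12, 13, 14 and 16 hpf, and 13.68 against 13.69 hpf at 15 hpf. With the replicate block the count of calls at 16 hpf was 188, and 0 with it in the 5 libraries of 16 hpf alone. The 0 calls for a departure at 16 hpf became 14 with DESeq2 and 0 to 3 without 1 library. Against wild type of 15 hpf the 15 calls became 188 with DESeq2, 7 without the filter, 95 with the replicate block, 273 without replicate 3 at any hour and 6 to 36 without 1 library. Against wild type of 14 hpf the 19 calls became 10 with DESeq2 size factors in edgeR, 159 with DESeq2, 9 without the filter, 89 with the replicate block, 352 without replicate 3 at any hour and 6 to 36 without 1 library. The 9 transcripts that change over 12 to 15 hpf in wild type became 292 with DESeq2, 1778 with the replicate block, 1619 with a block within each arm, 4571 without replicate 3 at any hour and 5 to 319 without 1 library. Signs turned with counts summed per symbol for FDFT1 (-0.707), rad54l2 (-0.0907), smpd2 (-0.0352) and a bhlhe40 transcript (0.479). They also turned for nkx2-5 with the replicate block (0.183), without wild-type replicate 2 (0.166) and without morpholino replicate 1 (0.0407), with a range of -0.284 to 0.166 without 1 library, and for dlx6 with the block in the 5 libraries alone (-0.0692), without morpholino replicate 3 (-0.0959) and without it at any hour (-0.0795), with a range of -0.0959 to 1.41 without 1 library. Of the values of the named genes under these settings, 1441 kept their direction and side of the threshold, 129 fell short of it, 81 passed it and 10 turned. The cause was not tested. In simulated counts of this comparison 15% of 2-fold and 70% of 4-fold changes were called, with changes placed only in transcripts with a mean log2 CPM above 1. Neither a replicate effect across hours nor a library like morpholino replicate 3 was simulated.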
